A study of Homo sapiens with 8 samples.

Results

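Transcripts of 10 secreted or cell-surface liver proteins were followed in 8 RNA-seq libraries of Hep3B cells. The 10 genes were ALB, AFP, TTR, TF, SERPINA1, SERPINA7, AHSG, AMBP, GPC3 and RBP4, chosen by name out of 16169 genes listed in either of the deposited tables. All 10 were listed in both tables and all 10 passed the filter on low counts, although in the knockout table SERPINA7 reached the filter's level in 1 of 2 Hep3B libraries and so passed through the group where it is high. Hep3B is a human hepatocellular carcinoma line that carries integrated hepatitis B virus DNA. The 4 groups of 2 libraries each were wild-type Hep3B, Hep3B labelled SOX4 knockout (SOX4-/-), wild-type Hep3B given control siRNA (called scramble siRNA here), and Hep3B given STAT6 siRNA. Each comparison asked whether these products changed when a transcription factor was removed or lowered. The study's methods describe the SOX4-/- cells as CRISPR/Cas9 lines kept in puromycin, and the wild-type cells are not described as selected in that way. The methods name SOX4-/- lines #1 and #2 for this RNA-seq, and the labels do not say which library came from which line. The spread between these 2 libraries may include a difference between lines. A clonal difference cannot be told apart from loss of SOX4.

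Hepatocytes make most of the proteins of blood plasma, and they export them through the endoplasmic reticulum and Golgi. The fetal liver makes alpha-fetoprotein (AFP) in large amounts and replaces it after birth with its sister protein albumin (ALB), the main osmotic and carrier protein of plasma. AFP and glypican-3 (GPC3) return in many liver tumours and are therefore called oncofetal. ALB, transthyretin (TTR) and alpha-1-antitrypsin (SERPINA1) are products of the mature hepatocyte.

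The libraries held between 16266329 and 25353149 counts. SOX4 counts scaled to a library of fixed size within each table (CPM) were 799 and 266 in Hep3B and 298 and 302 under the SOX4 knockout label, so the transcript did not separate these groups. The edited site is not given in the sources used here, and a transcript count does not test the protein. The study assessed SOX4 protein in Hep3B and SOX4-/- cells separately, by western blot. STAT6 was 31.95 and 13.2 CPM in Hep3B against 2.76 and 2.20 CPM under the SOX4 knockout label. In the siRNA table STAT6 was 42.5 and 31.4 CPM with scramble siRNA and 9.92 and 5.98 CPM with STAT6 siRNA, but its adjusted p was 1.00 by edgeR's quasi-likelihood test. Of 12 hepatocyte markers, 11 or more stood at 1 CPM or higher in both libraries of every group. Beyond the naming of knockout lines #1 and #2, nothing states that the 2 libraries of a group came from separate cultures. The p-values therefore measure only the spread between these libraries. In bulk RNA, fewer cells that make a product and less of its RNA per cell cannot be told apart.

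Upstream sequences were available from RefSeq (GRCh38.p14) for 8 of the 10 genes, with 12 listed start sites between them. None was available for TTR or GPC3, so these were not searched. SOX proteins such as SOX4 bind DNA at short sites such as the SOX core ACAANG. On either strand this core stood within 250 bases before 5 of these 12 starts (41.7%), beside 30.9% of all 35116 listed starts. Among these 5, the matches before a TF start and a SERPINA1 start lie inside a listed transcript. The windows below reach up to 250 bases before the start and stop where a listed transcript of the files begins. They are shown because ALB and AFP are the adult and oncofetal pair, and because SERPINA7 had the largest fitted log2 difference of the 10. Capitals mark ACAANG and the TATA box TATAAA on either strand, and no 2 of these matches overlap in the windows shown.
ALB, chr4:73404037-73404254, plus strand: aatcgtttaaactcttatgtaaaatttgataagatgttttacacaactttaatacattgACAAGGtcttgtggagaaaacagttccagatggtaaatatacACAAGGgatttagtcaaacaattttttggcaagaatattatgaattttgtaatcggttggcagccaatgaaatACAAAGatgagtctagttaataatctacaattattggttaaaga
AFP, chr4:73435971-73436218, plus strand: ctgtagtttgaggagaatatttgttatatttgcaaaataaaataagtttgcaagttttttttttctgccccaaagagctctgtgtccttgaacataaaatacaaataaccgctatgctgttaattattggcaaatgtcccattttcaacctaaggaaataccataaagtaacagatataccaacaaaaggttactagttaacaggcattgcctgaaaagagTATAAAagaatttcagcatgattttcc
SERPINA7, chrX:106038729-106038977, minus strand: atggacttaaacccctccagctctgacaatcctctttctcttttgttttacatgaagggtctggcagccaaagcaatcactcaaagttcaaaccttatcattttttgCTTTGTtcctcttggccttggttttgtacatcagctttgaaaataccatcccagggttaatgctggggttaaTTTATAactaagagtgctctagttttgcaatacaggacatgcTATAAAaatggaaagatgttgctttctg

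The SOX core began at positions -191, -149 and -76 from the ALB start and at -143 for SERPINA7, and had 0 matches before AFP. The match before 1 SERPINA1 start, at -214, lies inside a transcript that the files list (NM_000295), so that window is not shown. The matches before a TF start, at -238 and -228, lie inside a listed transcript too (NM_001063). TATAAA began at position -29 before both AFP and SERPINA7, with a match on the opposite strand at -71 before SERPINA7, and it stood in 10.7% of all listed windows of 250 bases. A STAT6-type pair of TTC and GAA with 4 bases between them stood in 5.38% of all windows, among them those of AHSG and 1 of the 3 RBP4 starts, and in none of the 3 windows printed. These are matches of letters and no measurement of binding. On the files' own coordinates (hg38) ALB lies on chromosome 4 at 73404255-73421413 and AFP at 73436219-73455786, with 14806 bases from the end of ALB to the start of AFP.

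To compare the adult products, the libraries labelled SOX4 knockout were set against Hep3B. TTR, the plasma carrier of thyroxine and of retinol-binding protein, was 20.9 and 18.4 CPM in Hep3B. With the SOX4 knockout label it was 247 and 99.1 CPM. Both of these stood far above both Hep3B libraries, which differed little from each other. TTR was higher by 3.14 on the log2 scale, an 8.82-fold difference, with a standard error of 0.49, a 95% interval of 2.00 to 4.29 and an adjusted p of 0.0194 by edgeR's quasi-likelihood test. It was the only member of the 10 past the threshold. Over all genes tested, 6.70% of 14415 were called and 5.08% were called higher, so 1 of 10 members is a share near that background. The call was lost when either library labelled SOX4 knockout was left out. Such a fit leaves 1 library in that group, and nearly all calls over all genes were lost there too. The loss is therefore not particular to TTR. Over the alternatives that kept all libraries, the adjusted p ranged from 2.2e-07 by DESeq2's Wald test to 0.0498 by edgeR. The log2 difference of TTR came to 2.34 without library 1 of the SOX4 knockout label and 3.62 without library 2. It was 3.17 without Hep3B library 1 and 3.05 without Hep3B library 2.

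SERPINA1, the inhibitor of neutrophil elastase, was 2709 and 2034 CPM in Hep3B and 9664 and 9337 CPM under the SOX4 knockout label. The latter pair nearly coincided and lay above both controls. The log2 difference was 2.00 with a standard error of 0.77, a 95% interval of 0.23 to 3.78 and an adjusted p of 0.146. A Wald test in DESeq2 gave SERPINA1 an adjusted p of 2.3e-05, so the call depended on the tool. Over all alternatives the adjusted p of SERPINA1 ranged from 2.3e-05 to 0.385.

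ALB was 7458 and 6824 CPM in Hep3B and 28445 and 13644 CPM under the SOX4 knockout label. The groups did not overlap, while the latter 2 libraries lay further apart from each other than the Hep3B libraries did. The log2 difference was 1.56 with a standard error of 1.04, a 95% interval of -0.84 to 3.96 and an adjusted p of 0.372, against an adjusted p of 0.0138 in DESeq2 and a range of 0.0138 to 0.737 over all alternatives. ALB alone held 0.711% and 0.714% of all counts in Hep3B, and 2.96% and 1.31% under the SOX4 knockout label.

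**Figure D1:**
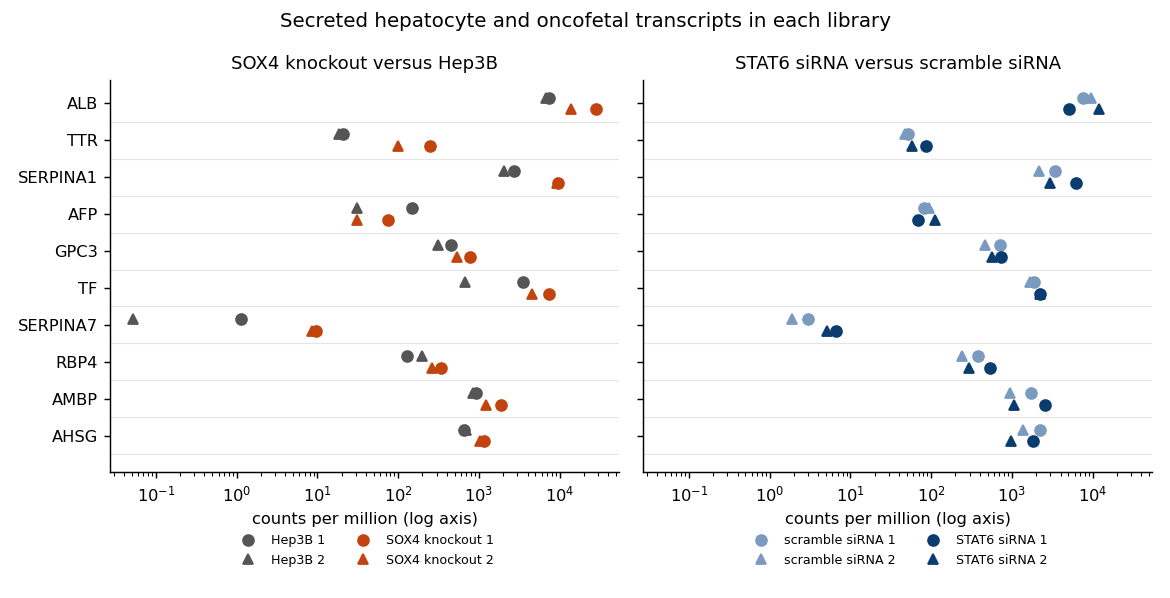
CPM of each transcript (log axis) in the 4 libraries of the knockout table (left) and of the siRNA table (right), with circles for libraries numbered 1 and triangles for those numbered 2. On the left, 9 of the 10 transcripts have both labelled knockout libraries to the right of both Hep3B libraries, and AFP overlaps. On the right, TTR, TF and SERPINA7 have both STAT6 siRNA libraries above both scramble siRNA libraries.

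The oncofetal products, AFP and GPC3, differed from each other in direction. AFP was 149 and 30.6 CPM in Hep3B and 75.2 and 30.9 CPM under the SOX4 knockout label. The 2 Hep3B libraries spanned the other group, so the groups overlapped. Its log2 difference was -0.76 with a standard error of 0.71, a 95% interval of -2.40 to 0.89 and an adjusted p of 0.530. The sign rested on Hep3B library 1, since without that library the log2 difference was 0.73.

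GPC3, a heparan sulphate proteoglycan anchored to the cell surface and in part shed, was 455 and 314 CPM in Hep3B. It was 777 and 532 CPM under the SOX4 knockout label, and these lay above both Hep3B libraries. The log2 difference was 0.77 with a standard error of 0.42, a 95% interval of -0.21 to 1.75 and an adjusted p of 0.286.

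The adult and oncofetal transcripts were also set against each other within a library, which does not depend on scaling between libraries. ALB counts exceeded AFP counts by 50.1-fold and 223-fold in Hep3B, and by 378-fold and 442-fold under the SOX4 knockout label. The 2 Hep3B libraries were wide apart, yet both lay below the other group. The mean log2 ratio came to 6.72 ± 1.52 in Hep3B and to 8.67 ± 0.16 (SD, n = 2 each) under the SOX4 knockout label, a difference of 1.95. It was 0.87 without Hep3B library 1 and 3.03 without Hep3B library 2. An exact permutation test of 2 libraries against 2 cannot give a two-sided p below 0.333, so no test was made.

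TTR counts were 0.140 and 0.602 times those of AFP in Hep3B, and 3.29 and 3.21 times those of AFP under the SOX4 knockout label, so the ratios did not overlap. The TTR transcript is the shorter, and per kilobase of transcript the order of the 2 genes was not the same in both Hep3B libraries. Per kilobase, TTR was 20.8 and 18.9 CPM and AFP 66.6 and 14.1 CPM in Hep3B, so TTR lay above AFP in library 2 there. Under the SOX4 knockout label TTR was 236 and 97.3 CPM per kilobase and AFP 32.3 and 13.6. Against GPC3, the other oncofetal transcript, TTR had 0.0459 and 0.0587 times the GPC3 counts in Hep3B and 0.319 and 0.186 times with the SOX4 knockout label, again without overlap. The mean log2 CPM of ALB, TTR and SERPINA1 minus that of AFP and GPC3 came to 2.11 ± 0.83 in Hep3B and to 4.13 ± 0.07 (SD, n = 2 each) under the SOX4 knockout label. That difference of 2.02 became 1.40 when AHSG, AMBP, RBP4 and TF were added to the adult products.

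**Figure D2:**
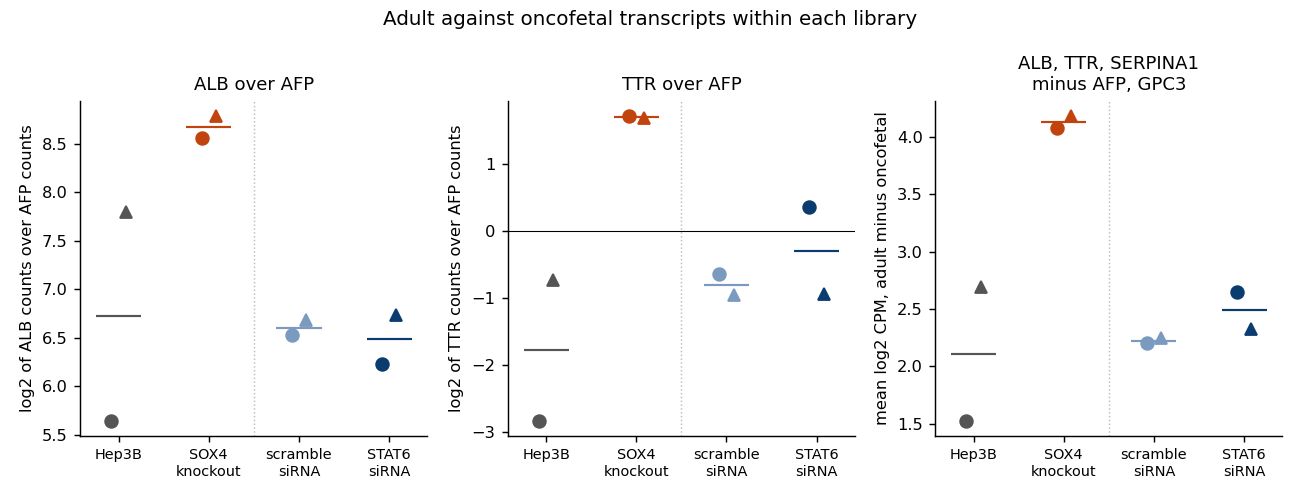
Log2 ratio of ALB to AFP counts (left), log2 ratio of TTR to AFP counts (middle) and the mean log2 CPM of ALB, TTR and SERPINA1 minus that of AFP and GPC3 (right) in each of the 8 libraries. Circles and triangles are libraries 1 and 2, bars are the mean of 2 libraries, and the dotted line separates the 2 tables. The labelled knockout libraries are highest in all 3 panels, at 8.56 and 8.79 for ALB over AFP, and the Hep3B libraries are 5.65 and 7.80.

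The remaining members are carriers and inhibitors of plasma. SERPINA7, the thyroxine-binding globulin, had only 20 and 1 counts in Hep3B (1.14 and 0.0527 CPM) and 256 and 154 counts under the SOX4 knockout label (9.69 and 8.47 CPM). The groups were far apart, but Hep3B library 2 had 1 count, so the size of the ratio is poorly set. The log2 difference was 3.94 with a standard error of 0.95 and a 95% interval of 1.74 to 6.14. Its adjusted p was 0.0503 by edgeR's quasi-likelihood test, 0.0438 with median-of-ratios scaling and 0.0449 with upper-quartile scaling. Over the alternatives that kept all libraries it ranged from 0.00039 to 0.0648. SERPINA7 entered the test through the group where it is high, which favoured this direction, so these p-values are not taken as support. The log2 difference was 7.22 without Hep3B library 1 and 2.99 without Hep3B library 2.

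TF, the iron carrier transferrin, was 3516 and 668 CPM in Hep3B and 7363 and 4536 CPM under the SOX4 knockout label. Hep3B library 2 was the lower of its pair by a wide margin, as for AFP, and the groups did not overlap. The log2 difference was 1.51 with a standard error of 0.90 and an adjusted p of 0.322. It was 3.09 without Hep3B library 1 and 0.75 without Hep3B library 2.

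RBP4, which carries retinol in plasma bound to TTR, was 130 and 199 CPM in Hep3B and 336 and 264 CPM under the SOX4 knockout label, with a log2 difference of 0.87 ± 0.38 (SE) and an adjusted p of 0.190. AMBP, the precursor of alpha-1-microglobulin and bikunin, was 927 and 853 CPM against 1884 and 1227 CPM, with a log2 difference of 0.81 ± 0.48 (SE) and an adjusted p of 0.326. AHSG, the fetuin-A that binds calcium phosphate in plasma, was 645 and 694 CPM against 1168 and 1023 CPM, with a log2 difference of 0.71 ± 0.42 (SE) and an adjusted p of 0.324. In each of these 3 genes both libraries labelled SOX4 knockout lay above both Hep3B libraries. The ratio of TTR to RBP4 counts was 0.161 and 0.0923 in Hep3B and 0.736 and 0.376 under the SOX4 knockout label, so the ratio of these partners did not overlap between the groups.

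In all, 9 of the 10 members had both libraries labelled SOX4 knockout above both Hep3B libraries, where 30.6% of all genes tested did so. Of the 10, 0 had both below, where 27.4% of all genes did. SERPINA7, among the 9, passed the filter through the group where it is high. The median log2 difference of the 10 was 1.19, beside 0.01 over all genes tested. By group it was 2.00 for the 3 adult products, 0.01 for the 2 oncofetal products and 0.87 for the other 5. Together the 10 members held 1.53% and 1.22% of all counts in Hep3B, and 5.20% and 2.95% under the SOX4 knockout label.

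**Figure D3:**
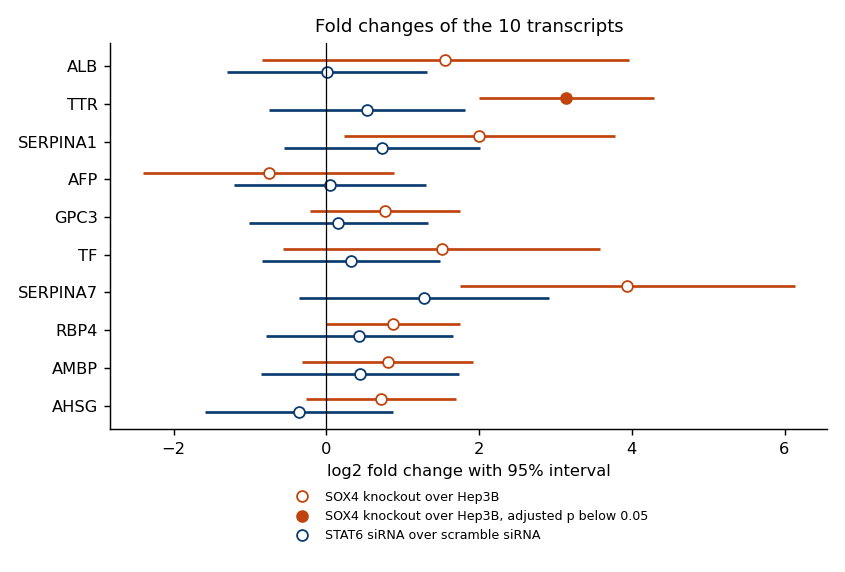
Log2 fold change of each transcript with its 95% interval, for the libraries labelled SOX4 knockout over Hep3B (orange) and STAT6 siRNA over scramble siRNA (blue). The filled point is TTR at 3.14, the only one with an adjusted p below 0.05. The interval of AFP reaches from -2.40 to 0.89 in the knockout table, and all 10 intervals of the siRNA table include 0. Both fits were made without library number as a term.

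To see whether the same products moved when STAT6 was lowered, STAT6 siRNA was set against scramble siRNA. None of the 10 members was called, and 0 of the 13554 genes in this fit (0%) passed the adjusted threshold by edgeR's quasi-likelihood test or by DESeq2. Only 14 of all genes had an unadjusted p below 0.05, 0 of them members. This depended on the model, since with library number as a term (the replicate block) 67 genes were called, among them SERPINA7 with a log2 difference of 1.30 and an adjusted p of 0.0029. Of the 10 members, 7 were higher and 1 was lower with STAT6 siRNA within both library numbers. The share of all genes with the same sign in both numbers was not computed, so this count is not read as particular to the members. TTR was 52.1 and 47.9 CPM with scramble siRNA and 86.6 and 58.5 CPM with STAT6 siRNA. Both STAT6 siRNA libraries were higher than both controls, by 0.73 in libraries numbered 1 and 0.29 in those numbered 2 on the log2 scale. The fitted log2 difference was 0.54 with a 95% interval of -0.75 to 1.82.

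SERPINA7 was 2.996 and 1.866 CPM with scramble siRNA and 6.69 and 5.12 CPM with STAT6 siRNA. These groups did not overlap either, and the log2 difference was 1.28 with a 95% interval of -0.36 to 2.92. TF was 1857 and 1678 CPM with scramble siRNA and 2198 and 2211 CPM with STAT6 siRNA. Its groups were also apart, with a log2 difference of 0.32 and a 95% interval of -0.85 to 1.48. These 3 of the 10 members compare with 2.74% of all genes tested that had both STAT6 siRNA libraries above both controls, and 5.26% had both below, among them 0 members.

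ALB differed in opposite directions by library number. It was 7503 CPM in scramble siRNA library 1 and 5095 CPM in STAT6 siRNA library 1, but 9566 and 12029 CPM in the libraries numbered 2. The groups overlapped, and the fitted log2 difference of 0.00 had a 95% interval of -1.30 to 1.31. AFP behaved likewise, with 81.5 against 68.0 CPM in libraries numbered 1 and 93.4 against 113 CPM in those numbered 2. Its log2 difference was 0.05 with a 95% interval of -1.20 to 1.30.

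SERPINA1 was 3419 and 2156 CPM with scramble siRNA and 6263 and 2954 CPM with STAT6 siRNA. It was higher within each number, by 0.87 and 0.45 on the log2 scale, yet the groups overlapped because libraries numbered 2 were low in both. GPC3 was 704 and 471 CPM against 738 and 572 CPM, higher within each number and overlapping between groups, with a log2 difference of 0.16 and a 95% interval of -1.02 to 1.33. AHSG was the only member lower within both numbers, with 2203 and 1385 CPM against 1815 and 987 CPM, a log2 difference of -0.36 and a 95% interval of -1.59 to 0.87. AMBP and RBP4 had log2 differences of 0.44 and 0.43 and were higher within each number, and their groups overlapped.

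The ratio of ALB to AFP counts was 92.1 and 102 with scramble siRNA and 75.0 and 107 with STAT6 siRNA. These overlapped, and the mean log2 ratios of 6.60 ± 0.11 and 6.48 ± 0.36 (SD, n = 2 each) differed by -0.12. The adult minus oncofetal difference was 2.22 ± 0.03 with scramble siRNA and 2.49 ± 0.23 with STAT6 siRNA (SD, n = 2 each), without overlap and with a difference of 0.26. The members' share of all counts was 1.75% and 1.84% with scramble siRNA and 1.62% and 2.23% with STAT6 siRNA.

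The spread inside the siRNA groups ran with base composition. Across 13404 genes the log2 difference of library 2 over library 1 had a Spearman correlation with transcript GC content of -0.76 with scramble siRNA and -0.82 with STAT6 siRNA, against -0.09 and 0.29 over 14235 genes in Hep3B and under the SOX4 knockout label. These are descriptions across genes that share libraries. Among the members, ALB and AFP have the lowest GC contents, 41.4% and 40.9%, and were higher in library 2 of both siRNA groups. SERPINA7 has the next lowest, 43.8%, and was lower in library 2 of both, as were TTR and GPC3 at 47.3% and 48.1%. SERPINA1, AHSG, RBP4 and AMBP have 53.6% to 56.9% GC and were lower there in both groups, by 0.67 to 1.29 on the log2 scale. The part of this in the members' values was not tested beyond the fits with offsets for GC content and length. In the siRNA table these called 0 members without library number in the model and 4 with it. The 4 were SERPINA7 (adjusted p 5.3e-06), TTR (0.00021), SERPINA1 (0.029) and AHSG (0.031) in edgeR's quasi-likelihood test, and AHSG was lower with STAT6 siRNA. Over all genes, the fit with library number and offsets called 415 of 13404, and 30.6% of these calls were higher. With the offsets alone 0 of 13404 genes were called.

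**Figure D4:**
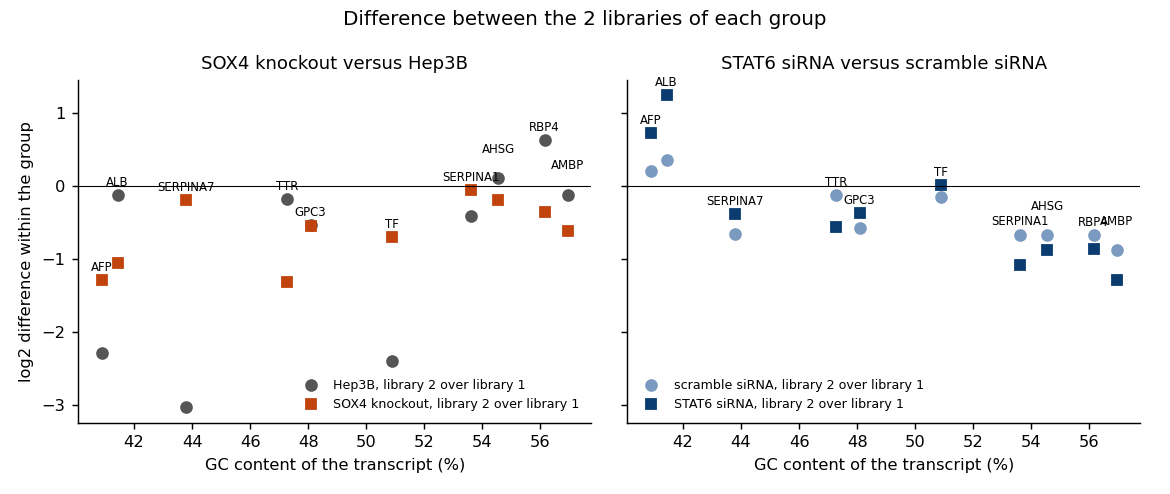
Log2 difference of library 2 over library 1 within each group for each transcript, against the GC content of its transcript in percent, for the knockout table (left) and the siRNA table (right). On the right ALB and AFP, at 41.4% and 40.9% GC, lie above 0, and SERPINA7, TTR, GPC3, SERPINA1, AHSG, RBP4 and AMBP lie below it in both groups. On the left SERPINA7, TF and AFP have the lowest Hep3B points, at -3.03, -2.40 and -2.28.

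Whether the effects in the 2 tables differed was tested in a fit of all 8 libraries, as the effect of the SOX4 knockout label minus that of STAT6 siRNA. In this fit 10 of 14632 genes (0.0683%) had an adjusted p below 0.05, and 0 were members. TTR had the smallest adjusted p of the 10, 0.335, with a difference of 2.48 on the log2 scale and a 95% interval of 0.83 to 4.12. SERPINA7 had a difference of 2.56 with an interval of 0.20 to 4.91 and an adjusted p of 0.663. The difference was 1.46 for ALB (-0.22 to 3.13), 1.15 for SERPINA1 (-0.45 to 2.76) and -0.90 for AFP (-2.89 to 1.09). Genotype label, culture and table cannot be told apart in this contrast.

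Levels of different genes were compared as CPM per kilobase of transcript, with 1 scaling over all 8 libraries. ALB ranked 1 of 14443 genes in both libraries labelled SOX4 knockout and 3 and 2 in the Hep3B libraries. It ranked 8 and 3 with scramble siRNA and 35 and 3 with STAT6 siRNA. SERPINA1 stood at 3 and 4 under the SOX4 knockout label and at 37 and 38 in Hep3B. TTR moved from 3805 and 3965 in Hep3B to 181 and 749 under the SOX4 knockout label.

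Per kilobase, the order of the members' medians over the 8 libraries was ALB (4118 CPM per kilobase), SERPINA1 (1479), TF (887), AMBP (786), AHSG (665), RBP4 (301), GPC3 (245), TTR (65.6), AFP (41.1) and SERPINA7 (2.77). AFP thus lay far below ALB in every library, and its rank ranged from 1141 in Hep3B library 1 to 5197 in library 2 labelled SOX4 knockout. GPC3 varied least, 2.91-fold between its lowest and highest library. TTR varied 12.5-fold, and SERPINA7, with 1 count in its lowest library, varied most at 171-fold.

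The control groups of the tables did not share a level for every member. On the scale of all 8 libraries, TTR was 19.1 and 17.3 CPM in Hep3B and 56.7 and 51.8 CPM with scramble siRNA, without overlap. In all, 7 of the 10 members were lower in Hep3B than with scramble siRNA without overlap. Besides TTR these were ALB, SERPINA7, AHSG, AMBP, GPC3 and RBP4, while TF, SERPINA1 and AFP overlapped. The share of all genes that lay lower in this way was not computed, so the count is not read as particular to the members. For TTR the order of group means was Hep3B, scramble siRNA, STAT6 siRNA and SOX4 knockout label, and only the last pair of neighbours overlapped. For AFP all neighbours overlapped. AHSG followed another order, from Hep3B over the SOX4 knockout label and STAT6 siRNA to scramble siRNA, and only the last pair overlapped. These levels span separate tables, and no test was made on them.

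The other genes of the pathway came from lists of named genes. In the list of 32 other plasma proteins, 28 were tested in the knockout table, 12 were called higher and 0 lower, and the median log2 difference was 2.17. Among the most changed with enough counts were ITIH1, which binds hyaluronan, at 5.61, SERPINA4 (kallistatin) at 4.64 and HRG (histidine-rich glycoprotein) at 4.45. ITIH1 was 0.624 and 0.422 CPM in Hep3B and 36.9 and 14.5 CPM under the SOX4 knockout label. Of the 12 called, 5 reached the filter's level in fewer than 2 Hep3B libraries, ITIH1, SERPINA4 and HRG among them. These passed the filter through the group where they are high, which fixed their direction.

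Around the members' own loci, all 6 tested serpins of the 14q32 cluster beside SERPINA1 lay above 0, and SERPINA4, SERPINA6 and SERPINA11 were called higher. SERPINA11 had 0 counts in both Hep3B libraries and averaged 15 counts over the 4 libraries, so it too passed the filter only through the other group, as SERPINA4 did. SERPINA6, the corticosteroid-binding globulin, was 45.0 and 9.81 CPM in Hep3B and 202 and 195 CPM under the SOX4 knockout label, a log2 difference of 2.85 with an adjusted p of 0.0447. Beside ALB and AFP on chromosome 4, the vitamin D-binding protein GC was 1955 and 488 CPM against 2970 and 2128 CPM, with a log2 difference of 1.06 and an adjusted p of 0.383, and AFM was not called either. HRG was the called gene of the 2 tested in the fetuin cluster of AHSG.

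Of 19 other oncofetal and tumour markers tested, 13 lay above 0 and 6 below, with a median log2 difference of 0.51. None was called by edgeR's quasi-likelihood test, and 4 had an unadjusted p below 0.05, where 26.8% of all genes tested did. H19, a fetal noncoding RNA, was 3856 and 990 CPM in Hep3B and 3717 and 3098 CPM under the SOX4 knockout label. IGF2, a fetal growth factor, was 1058 and 435 CPM against 1776 and 1617 CPM, with a log2 difference of 1.18 and an adjusted p of 0.224. Of the 5 other glypicans 0 were called, with GPC6 at -0.71 and GPC1 at 1.46 on the log2 scale.

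**Figure D5:**
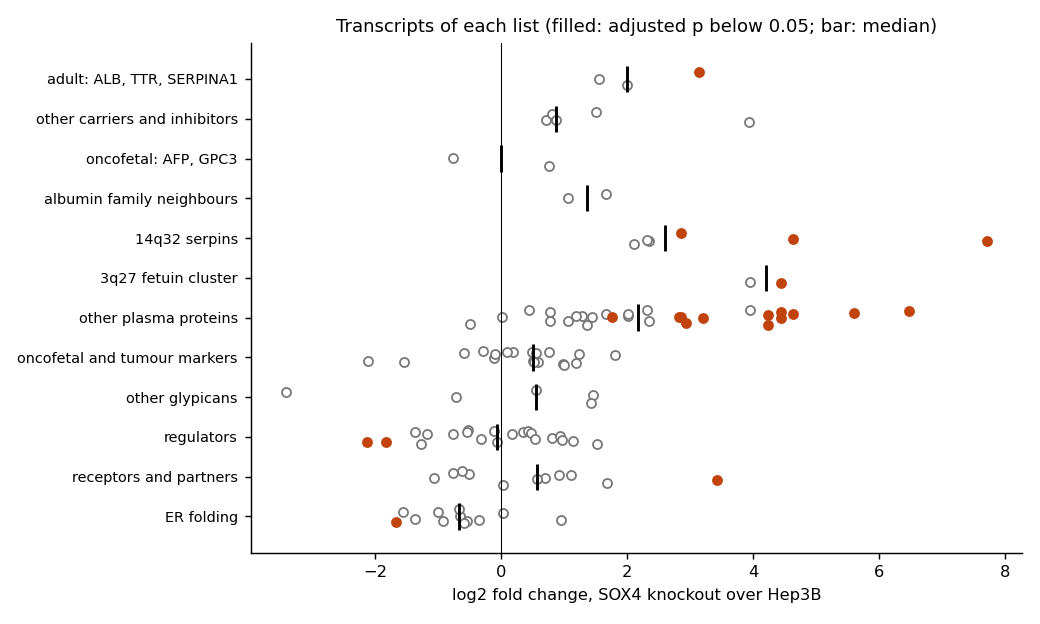
Log2 fold change of the tested genes of each list, libraries labelled SOX4 knockout over Hep3B. Filled points have an adjusted p below 0.05 and bars are medians. The median is 2.17 for other plasma proteins, with 12 filled points, and 0.51 for oncofetal and tumour markers, with none.

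Regulators of these genes were listed too. Of 21 tested, 0 were called higher and 2 lower, with a median of -0.06. ZHX2, a known repressor of AFP in the adult liver, was 206 and 99.0 CPM in Hep3B and 38.0 and 48.3 CPM under the SOX4 knockout label. It fell by 1.82 on the log2 scale with a standard error of 0.43 and an adjusted p of 0.0480. NFIB fell by 2.14 with an adjusted p of 0.0445. ZBTB20, another repressor of AFP, had a log2 difference of -0.54 and an adjusted p of 0.470. HNF4A, a main regulator of hepatocyte genes, was 194 and 168 CPM against 393 and 302 CPM, with a log2 difference of 0.94 and an adjusted p of 0.142.

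Among 11 tested receptors and cargo partners, 1 was called higher. This was TFR2, a transferrin receptor, at 1.87 and 1.21 CPM in Hep3B and 23.2 and 10.0 CPM under the SOX4 knockout label. Its log2 difference was 3.43 with an adjusted p of 0.0243 by edgeR's quasi-likelihood test. TFRC, another transferrin receptor, was far more abundant, at 844 and 410 CPM against 602 and 680 CPM. The log2 difference of TFRC was 0.03 with an adjusted p of 0.948. Of 12 genes for folding and disposal in the endoplasmic reticulum, 10 lay below 0, with a median log2 difference of -0.67, and DNAJB9, a cochaperone of that compartment, was called lower at -1.67 with an adjusted p of 0.0472. The chaperone HSPA5 had a log2 difference of -1.56 and an adjusted p of 0.131.

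Markers of cell types were read beside these results. Of 12 hepatocyte markers, 11 lay above 0 and APOC3, APOH, FGB and APOA1 were called higher, and their summed level ranged from 3702 to 4456 CPM of all counts in Hep3B and from 6130 to 11812 CPM under the SOX4 knockout label. Of 6 stellate or fibroblast markers, 3 were at 0 or not listed in both groups, and the sum was 4.22 to 7.78 CPM in Hep3B and 74.5 to 105 CPM under the SOX4 knockout label. Most of that was LUM, at 0.624 and 0.738 CPM against 85.5 and 54.2 CPM, and PDGFRB was called higher too. Of 5 endothelial markers, 4 were at 0 or not listed. Of 6 macrophage or blood markers, 2 were at 0 or not listed, 0 were called, and the sum was 31.5 to 42.4 CPM in Hep3B and 79.9 to 93.6 CPM under the SOX4 knockout label. Most of that sum was CD68, while CD14 was 1.14 and 1.42 CPM against 3.41 and 4.45 CPM. Of 6 bile duct or progenitor markers 0 were called, and their sum was 919 to 1597 CPM in Hep3B and 1731 to 1819 CPM under the SOX4 knockout label. The part of these levels in the members' values was not tested. After STAT6 siRNA 0 genes of any list were called, and the median log2 difference was 0.24 for other plasma proteins and 0.00 for oncofetal and tumour markers, beside -0.03 over all genes.

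Genes most like ALB and AFP were sought among the 10994 genes averaging 100 counts or more, by the root mean square difference of centred log2 CPM over the 8 libraries. For ALB these were BCKDHB, a subunit of the branched-chain ketoacid dehydrogenase, at 0.14, CAPRIN2, an RNA-binding protein, at 0.14, and catalase (CAT) at 0.18. For AFP they were SLC22A3, an organic cation transporter, at 0.29, PLEKHH1 at 0.36 and the ligand SHH at 0.37. AFP thus had no neighbour as near as those of ALB. Among the members, AFP was most like GPC3 at 0.75 and least like SERPINA7 at 1.84, while AMBP and GPC3 were the closest pair at 0.27. These values are descriptions over 8 libraries of 4 groups.

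Of the 10 members, 8 were listed as a single transcript. SERPINA1 had 11 listed transcripts, and NM_000295, whose start the files list at 94388817 on chromosome 14 while the other 10 start further upstream, held 57.2% to 60.7% of its expected counts over the 8 libraries. GPC3 had 4, of which NM_004484 held 94.98% to 97.2%. Neither share moved between groups by more than its spread between libraries in the knockout table, with means of 59.5% ± 1.83 in Hep3B and 58.2% ± 1.37 under the SOX4 knockout label for SERPINA1 (SD, n = 2 each). The 11 transcripts share most exons, so this split is an estimate.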

How the data were processed

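Values are the expected counts that the authors deposited for each RefSeq transcript, which estimate its reads without normalization, in a knockout table and an siRNA table. The libraries were Illumina stranded mRNA preparations. The submitters' processing notes name STAR, Partek and hg38, and the quantifier and its settings are not given in the sources used here. Transcripts summing to under 10 over the 4 libraries of a table were absent, and 0 columns were left without a sample. Expected counts were summed by gene name and rounded to whole numbers, although the design had assumed counts.

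Genes passing filterByExpr were fitted with edgeR 4.0.16 in R 4.3.3 (TMM scaling, glmQLFit with legacy = FALSE, glmQLFTest, Benjamini-Hochberg adjustment). The installed default is legacy = TRUE, which is among the alternatives. The threshold was an adjusted p of 0.05 over all genes tested. The 2 tables were fitted separately, and a fit of all 8 libraries tested the difference of effects. CPM beside a test were scaled within its table. Intervals are 95% from the fit. Log2 CPM used a prior count of 2. GC content and length came from GENCODE release 29 transcripts clipped to the listed span, for 15896 genes. The scripts were tested on simulated data. The members, lists and tests were chosen with earlier results of these data known, so no list is independent evidence.

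Named genes were the 10 members, SOX4, STAT6, ZBTB20, ZHX2 and HNF4A. From each list came at most 4 genes, by size of change, with an adjusted p below 0.05, a mean of at least 100 counts and groups apart, or otherwise at most 2 with the highest mean CPM. HSPA5 and TFRC were named after their values were seen. Some items that these rules name are not reported here. For ALB and AFP, the 3 most similar genes were named. Alternatives were DESeq2 1.42.0, other scalings and filters, offsets for GC content and length, library number as a block, and leaving out each library. Depth limits SERPINA7 most, and precision rests mainly on 2 libraries per group.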

Additional observations from a re-analysis of the deposited data

How the results depend on the processing

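For the libraries labelled SOX4 knockout the count of called genes, 966, became 2160 in DESeq2, 597 with at least 10 counts in every library, 623 with GC and length offsets and 200 with the replicate block and these offsets. Leaving out a library gave 0 to 1973, with 23 without SOX4 knockout replicate 1, 0 without replicate 2 of that group and 1973 without Hep3B replicate 1. Called members rose from 1 to 2 with median-of-ratios or upper-quartile factors, the replicate block alone or with offsets, or all 8 libraries in 1 fit (SERPINA7 joined TTR), and to 4 in DESeq2 (ALB and SERPINA1 too), and ranged from 0 to 2 with a library left out. In DESeq2 63.9% of calls were higher, beside 75.8%. Numbers shared by libraries are not said to mark a batch. Deviations of same-numbered libraries correlated at -0.08 in the knockout libraries and their controls and at 0.87 in the siRNA libraries. The replicate block gave 1025 calls for the knockout, and for STAT6 siRNA 67 calls with 1 member, SERPINA7 (log2 difference 1.30, adjusted p 0.0029). Block and offsets together gave 415 calls among 13404 genes, with 4 members, AHSG, SERPINA1, SERPINA7 and TTR. Without the block no alternative called a gene in the siRNA table. For the difference of effects, 10 calls became 5 with upper-quartile factors, 146 in DESeq2, 1 with at least 10 counts, 90 with the block, 75 with offsets, 40 with both, 6 with a single transcript per gene, and 0 to 101 with a library left out, none a member, and upper-quartile factors moved the median of all genes from -0.08 to 0.07. A fit with a lone library assumes that it varies like the others.

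The adult over oncofetal difference of 2.02 became 1.40 with 7 adult products. With a library left out, the ALB over AFP difference ranged from -0.37 to 0.14 for STAT6 siRNA. Signs turned for AFP in the knockout table (-1.53 to 0.73), and in the siRNA table for ALB (-0.75 to 0.50, with -0.11 under the block and -0.0036 with a single transcript), AFP (-0.37 to 0.37), AHSG (-0.86 to 0.091), AMBP (-0.34 to 1.03), GPC3 (-0.10 to 0.54) and RBP4 (-0.064 to 0.88). For the difference of effects they turned for AFP (-1.65 to 0.62), AMBP (-0.30 to 1.15) and RBP4 (-0.087 to 0.93). The cause was not tested. SERPINA7 could not be tested with at least 10 counts in every library.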

Other observations

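The 2 Hep3B libraries differed from each other in several transcripts outside the 10 members. CPM in library 1 and library 2 were 799 and 266 for SOX4, 3856 and 990 for H19, 1955 and 488 for GC, 709 and 191 for the stem-cell surface marker PROM1 and 233 and 25.3 for SERPINA5. AFP, TF and SERPINA7 among the members had the same direction, by the widest margins of the members. The other members were also lower in library 2, except AHSG and RBP4, which were higher. With the SOX4 knockout label PROM1 was 704 and 592 CPM and SERPINA5 643 and 475 CPM. Log2 differences of library 2 over library 1 in Hep3B were -2.28 for AFP and -0.13 for ALB. These genes were chosen after their values were seen, and what differed between these libraries was not tested.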
